A study of Homo sapiens with 6 samples.

Results

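9 genes were followed that encode factors of nonsense-mediated mRNA decay (NMD) and of translation termination, namely UPF1, UPF2, UPF3A, UPF3B, SMG1, SMG5, SMG6, ETF1 and GSPT1. They were taken by symbol as a fixed list, which was chosen with earlier results of these data known. All 9 were found among the 58884 gene IDs of the tables and were abundant enough to test. The RNA came from HCT116, a human colon carcinoma cell line in common use, 48 h after transfection. The control group (siCTRL, n = 3 libraries) received a negative control siRNA, and the knockdown group (siMatrin3, n = 3) received a commercial pool of siRNAs against Matrin3, a nuclear protein that binds RNA and takes part in splicing. A single siRNA pool was used, so an effect of Matrin3 loss and an off-target effect of the pool cannot be told apart. The libraries are called biological triplicates, and the p-values measure the spread between cultures of 1 line. The study followed a CDC14B variant with a premature stop codon and depleted UPF1 in separate experiments. The question here was whether the RNA of the decay and termination machinery itself changed in abundance after Matrin3 knockdown.

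NMD removes mRNAs on which the ribosome stops too early. At a stop codon, eRF1 (from ETF1) reads the codon in the ribosome and the GTPase eRF3a (from GSPT1) helps it release the finished protein. When termination is slow or an exon junction complex still lies downstream, the helicase UPF1 is engaged together with UPF2 and UPF3, the kinase SMG1 phosphorylates UPF1, and SMG proteins such as SMG5 and SMG6 bind the phosphorylated protein and start decay, SMG6 by cutting the mRNA itself. The mRNAs of several of these factors are themselves known targets of the pathway.

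Depth and the knockdown were examined first. Estimated counts summed to between 4556658 and 8400412 per library, and a member held between 105 and 2685 counts in a library, with UPF3B the lowest and SMG1 the highest. MATR3, the targeted gene, was at 363, 343 and 330.2 CPM (counts scaled to a common library total with TMM factors) in siCTRL replicates 1 to 3 and at 72.4, 67.9 and 71.4 CPM in siMatrin3, which gave -2.29 ± 0.06 (SE) on the log2 scale and an adjusted p of 7.58e-11 by edgeR. All 5 epithelial markers listed were detected, and their summed level was 1068 to 1141 TPM (a level per transcript length, scaled within a library) in siCTRL and 1149 to 1163 in siMatrin3, without overlap. By counts, all 5 had positive log2 fold changes (median 0.18), 4 did not overlap between groups, and EPCAM (higher by 21.6%, adjusted p = 0.0183 by edgeR) and KRT19 (higher by 17.2%, adjusted p = 0.0106) passed. Of all genes tested, 15.0% were higher without overlap in CPM and 5.68% passed as higher. Of 5 fibroblast markers 1 was high enough to test, at a summed 6.56 to 9.18 TPM with COL1A2, COL3A1 and DCN at 0 counts, and of 5 blood markers 1 was tested, at 0 to 2.41 TPM with CD3E and HBB at 0. The share of counts from the mitochondrial genome was 9.026% to 10.189% for siCTRL and 9.801% to 11.619% for siMatrin3. These mitochondrial shares overlapped between the groups. The part of the epithelial differences and of the mitochondrial share in the results that follow was not tested. In RNA of whole cultures, fewer expressing cells and less RNA per cell cannot be told apart.

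The 2 termination factors were the members that changed. GSPT1 rose by 23.5% and ETF1 by 13.7% in siMatrin3, whereas no UPF or SMG gene passed the threshold in either direction. The test was edgeR's quasi-likelihood test over 14334 genes with Benjamini-Hochberg adjustment, and an adjusted p under 0.05 was taken as a change. Among all genes tested, 5.68% rose and 5.18% fell. Counted over the members, 2 of 9 rose and 0 fell, with 7 not past the threshold, and at an unadjusted p under 0.05 the counts were the same, 2 and 0, beside 12.8% and 12.3% of all genes. DESeq2 called 2 members higher and 0 lower, where it called 7.32% and 5.45% of all genes. A fit with the replicate number as a block called 2 higher and 1 lower, SMG6, where it called 8.39% and 7.37% of all genes. The median log2 fold change of the members was -0.01, against -0.000648 over all genes, and the median absolute change over all genes was 0.162.

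GSPT1 (ENSG00000103342) lies on chromosome 16, 11868128 to 11916082 on hg38, minus strand, with 15 exons in its canonical transcript. It stood at 200.3, 200.3 and 186 CPM in siCTRL replicates 1 to 3 and 239.9, 232 and 253 CPM in siMatrin3. Each siMatrin3 library was above each siCTRL library. The means were 196 ± 8.05 CPM and 242 ± 10.8 CPM (SD, n = 3 each), a log2 fold change of 0.31 ± 0.06 (SE, 95% interval 0.18 to 0.43) with an adjusted p of 0.00417 by edgeR. Its span overlaps 4 other annotated genes, of which ENSG00000261560, a non-coding gene on the same strand, held 107 counts over the 6 libraries. GSPT1 stayed past the threshold in 15 of 16 alternative analyses, with log2 fold changes between 0.27 and 0.34, and missed it when RSEM's effective length entered the fit as an offset (adjusted p = 0.061).

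ETF1 (ENSG00000120705) lies on chromosome 5, 138506095 to 138543236 on hg38, minus strand, with 11 exons. Its level was 263, 267 and 259 CPM in siCTRL and 314, 291 and 293 CPM in siMatrin3. The groups did not overlap, and the siCTRL values lay closely together. The means were 263 ± 3.73 and 299 ± 12.6 CPM (SD, n = 3 each), and the log2 fold change was 0.19 ± 0.05 (95% interval 0.07 to 0.30, adjusted p = 0.0355 by edgeR). ETF1 passed in 9 of 16 alternatives, fewer than GSPT1. Leaving out any 1 library other than siMatrin3 replicate 2 ended the call. Adjusted p was then 0.0871, 0.0659 and 0.123 without siCTRL replicate 1, 2 or 3 and 0.150 and 0.0782 without siMatrin3 replicate 1 or 3, and it was 0.130 with the effective length offset. The log2 fold change stayed between 0.15 and 0.23 in all 16.

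Across the whole table, CPM without overlap between the groups was found for 15.0% of genes in the direction of siMatrin3 higher and for 14.7% in the direction of siMatrin3 lower. Among the members, GSPT1 and ETF1 were without overlap and higher, and UPF3A was without overlap and lower.

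**Figure D1:**
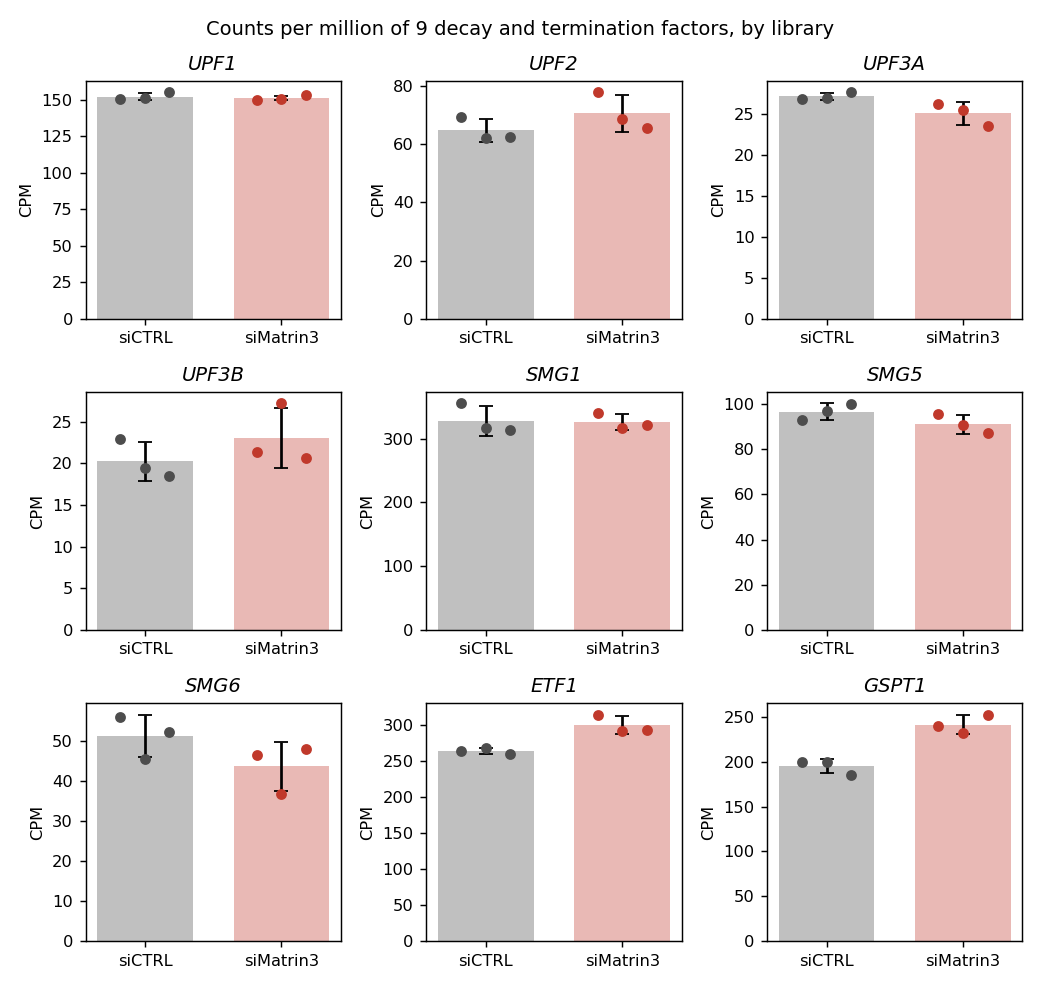
CPM of the 9 genes in each library (points), with the mean (bar) and SD (error bar) of siCTRL (grey, n = 3) and siMatrin3 (red, n = 3), on vertical axes that start at 0. The siMatrin3 points lie above all siCTRL points for ETF1 and GSPT1 and below them for UPF3A, and the groups overlap for the other 6 genes.

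Since GSPT1 and ETF1 moved in the same direction, the sequences around their start sites are shown. They come from RefSeq (GRCh38.p14) and hold 250 bases before and 50 bases after the start, written 5′ to 3′ on the minus strand. Capitals mark exact matches, on either strand, to the CCAAT box (CCAAT), the GC box (GGGCGG), the TATA box (TATAAA), the E-box (CACGTG) and an ETS site (CCGGAAG).
GSPT1 promoter, chr16:11915907-11916206: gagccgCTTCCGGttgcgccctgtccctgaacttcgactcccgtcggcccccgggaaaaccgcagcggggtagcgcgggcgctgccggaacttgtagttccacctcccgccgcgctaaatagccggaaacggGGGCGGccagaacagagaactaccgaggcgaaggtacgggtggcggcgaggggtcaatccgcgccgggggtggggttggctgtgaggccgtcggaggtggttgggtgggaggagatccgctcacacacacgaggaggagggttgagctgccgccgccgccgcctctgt
ETF1 promoter, chr5:138543187-138543486: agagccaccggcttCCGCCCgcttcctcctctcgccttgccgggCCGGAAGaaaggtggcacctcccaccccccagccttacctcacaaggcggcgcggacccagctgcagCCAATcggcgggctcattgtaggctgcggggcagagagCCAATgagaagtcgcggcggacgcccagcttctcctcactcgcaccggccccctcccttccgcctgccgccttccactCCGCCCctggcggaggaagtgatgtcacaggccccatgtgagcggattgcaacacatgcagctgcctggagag
Both promoters held 1 ETS match, GSPT1 held 1 GC box and ETF1 2, and ETF1 alone of the pair held the CCAAT box, 2 times. Neither contained the TATA box or the E-box, and the matches shown do not overlap each other. Over 35116 promoters of that length, the ETS match was present in 10.3%, the GC box in 45.0%, the CCAAT box in 34.6%, the TATA box in 11.5% and the E-box in 7.26%. All 9 members had a promoter entry. GC boxes were present in 8 of them, all but SMG5, the CCAAT box in 4 (UPF1, UPF3B, SMG5 and ETF1) and the ETS match in 3 (UPF3A, ETF1 and GSPT1), and the TATA box and the E-box in 0. GC content was 59.7% (SMG5) to 78.3% (SMG6) in the members' promoters, against a median of 58.7% over the 35116. The part of GC content in these matches was not tested. These are matches of letters and not measured binding.

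The UPF genes were examined next, with positions on hg38 throughout. UPF1 (chromosome 19, 18831959 to 18868230, plus strand), the central helicase, measured 150.2, 151 and 155 CPM in siCTRL and 150.1, 150.4 and 153 CPM in siMatrin3. Its log2 fold change was -0.01 ± 0.05 with a 95% interval from -0.12 to 0.10 (adjusted p = 0.934 by edgeR). UPF2 (chromosome 10, 11920022 to 12043170, minus strand), which bridges UPF1 and UPF3, was at 69.3, 62.3 and 62.7 CPM in siCTRL and 77.9, 68.6 and 65.7 CPM in siMatrin3, with the groups overlapping (log2 fold change 0.14, 95% interval -0.04 to 0.31, adjusted p = 0.324).

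UPF3A and UPF3B are paralogues that link the decay machinery to the exon junction complex. UPF3A (chromosome 13, 114281601 to 114305817, plus strand) measured 26.8, 26.9 and 27.6 CPM in siCTRL and 26.2, 25.4 and 23.5 CPM in siMatrin3. The groups did not overlap, but the log2 fold change of -0.11 ± 0.09 did not pass (95% interval -0.31 to 0.09, adjusted p = 0.508). UPF3B (chromosome X, 119834022 to 119852998, minus strand) measured 22.9, 19.4 and 18.5 CPM in siCTRL and 21.4, 27.2 and 20.6 CPM in siMatrin3. Its groups overlapped, with the highest value in siMatrin3 replicate 2 (log2 fold change 0.19 ± 0.13, 95% interval -0.09 to 0.47, adjusted p = 0.408). The interval of UPF3B was the widest of the 9, and a change as large as that of GSPT1 was inside it. Interval ends of UPF2 (0.31), UPF3A (-0.31) and SMG6 (-0.44) also reached that size, those of UPF3A and SMG6 as falls.

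Of the SMG genes, the kinase SMG1 (chromosome 16, 18804860 to 18926408, minus strand) was at 355, 316 and 313 CPM in siCTRL and 339.8, 317 and 321 CPM in siMatrin3 (log2 fold change -0.01 ± 0.06, 95% interval -0.14 to 0.12, adjusted p = 0.961). SMG1 has 7 near-identical copies, SMG1P1 to SMG1P7, to which the counting could divert reads. The copies together took 1361 to 1898 estimated counts per library, and SMG1 kept 52.5% to 59.1% of the sum. With the copies added, the level was 663.4, 533.6 and 597.1 CPM in siCTRL and 600, 553.8 and 586.9 CPM in siMatrin3, and the log2 fold change was -0.04 (adjusted p = 0.778). The groups overlapped with and without the copies. The copies of ETF1 and UPF3A held few counts, at most 123.53 over all libraries for ETF1P2, and ETF1 still passed when they were added. GSPT2, the retrogene that encodes eRF3b, was at 0 or 1 count in each library and was not tested.

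SMG5 (chromosome 1, 156249224 to 156282825, minus strand), an adaptor that recruits decay enzymes to phosphorylated UPF1, measured 93.0, 97.0 and 100.2 CPM in siCTRL and 95.6, 90.9 and 87.2 CPM in siMatrin3 (log2 fold change -0.08 ± 0.06, 95% interval -0.22 to 0.05, adjusted p = 0.457). The groups overlapped. SMG6 (chromosome 17, 2059839 to 2303785, minus strand), the endonuclease, measured 56.1, 45.6 and 52.3 CPM in siCTRL and 46.5, 36.7 and 48.0 CPM in siMatrin3. Its groups overlapped as well, and replicate 2 was the lowest library in each group. The log2 fold change was -0.21 ± 0.11 (95% interval -0.44 to 0.02, adjusted p = 0.248). With the replicate number as a block, SMG6 passed as lower, at -0.2332 and an adjusted p of 0.0497. Without siMatrin3 replicate 2 the log2 fold change without the block was -0.1062 (adjusted p = 0.578). SMG6 was the member whose call the block changed. Its span overlaps 14 other annotated genes, among them SRR on the opposite strand with 314.9 counts over the 6 libraries.

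**Figure D2:**
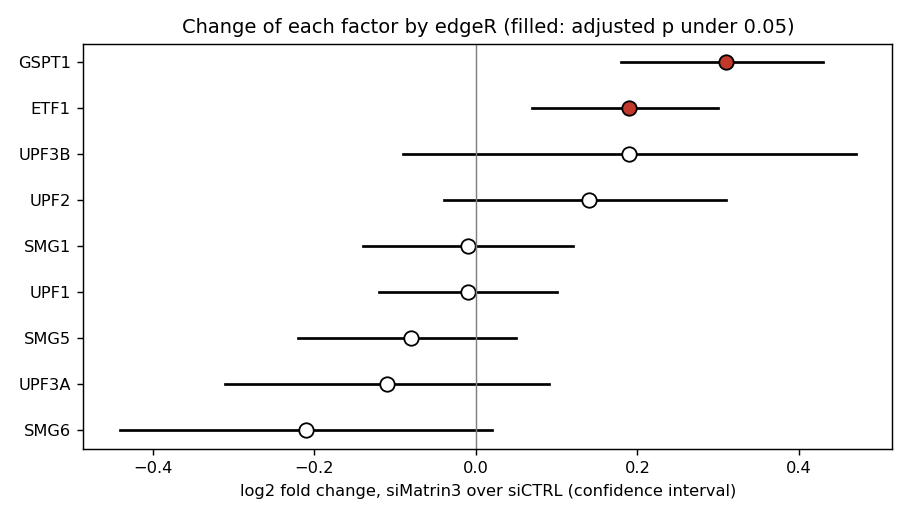
Log2 fold change of each gene, siMatrin3 over siCTRL, by edgeR (point) with its 95% interval (line), filled where the adjusted p is under 0.05. The intervals of GSPT1 (0.18 to 0.43) and ETF1 (0.07 to 0.30) lie above 0, and those of the other 7 genes include it.

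Levels of different genes were compared per length, in TPM as the tables give it. The order in siCTRL placed both termination factors on top, with mean levels of 101 TPM for ETF1 and 80.6 TPM for GSPT1, followed by SMG1 (49.1), UPF1 (38.2), SMG5 (27.3), UPF3A (17.0), UPF2 (14.5), SMG6 (12.4) and UPF3B (9.8). SMG1 and UPF1 overlapped in their ranges, as did UPF3A with UPF2 and UPF2 with SMG6, and all other neighbours were apart. In siMatrin3 the order was the same down to UPF2, and UPF3B (10.3 TPM) and SMG6 (10 TPM) then stood with overlapping ranges. Among the 14334 genes tested, mean TPM placed ETF1 at percentile 95.0, GSPT1 at 93.7, SMG1 at 87.2 and UPF1 at 83.8, whereas SMG6 (51.6) and UPF3B (48.2) were near the middle.

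**Figure D3:**
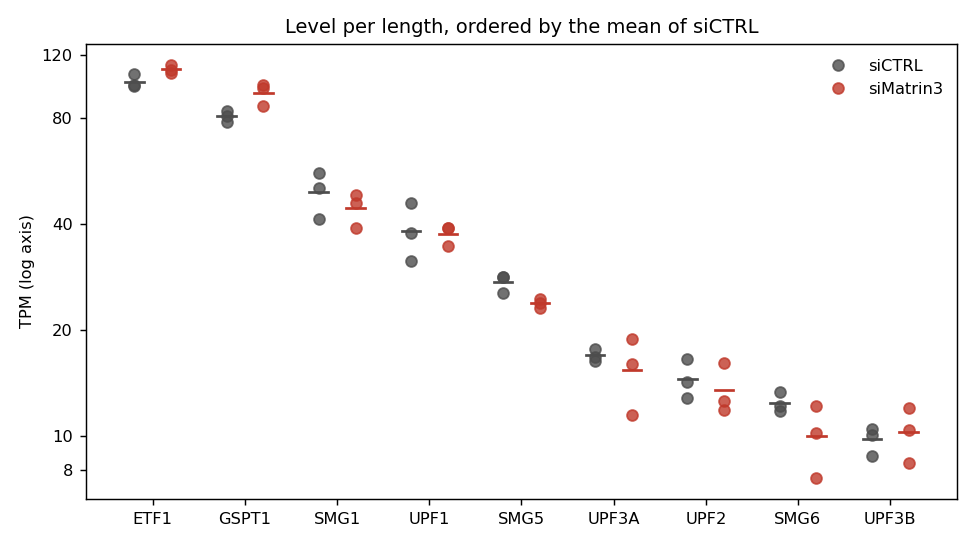
TPM of each gene in every library (points) and the mean of each group (short line), on a log axis, with genes ordered by the mean of siCTRL. ETF1 and GSPT1 lie above the 7 UPF and SMG genes in all 6 libraries.

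On the TPM scale the differences of both termination factors were smaller. The median log2 change over all genes was lower there too, at -0.0917 against -0.000648 by count. GSPT1 was at 83.3, 80.7 and 77.7 TPM in siCTRL and 97.0, 86.2 and 99.2 TPM in siMatrin3, without overlap. ETF1 was at 98.2, 106 and 99.0 TPM in siCTRL and 109, 107 and 113 TPM in siMatrin3, again without overlap. Tested by limma on log2(TPM + 1), the changes were 0.22 for GSPT1 (adjusted p = 0.182) and 0.11 for ETF1 (adjusted p = 0.384), and neither passed. SMG5, at 28.2, 28.2 and 25.4 TPM in siCTRL and 24.5, 23.9 and 23.1 TPM in siMatrin3, was without overlap and lower (-0.19, adjusted p = 0.332). Without overlap in TPM were 5.48% of all genes in the higher and 18.4% in the lower direction. UPF3A, without overlap by CPM, overlapped in TPM, at 16.3, 17.7 and 16.8 in siCTRL and 16.0, 18.8 and 11.5 in siMatrin3. UPF2 had a log2 change of 0.14 by count and of -0.10 in TPM (adjusted p = 0.78 by limma). SMG6 had -0.31 on this scale, with overlapping groups (adjusted p = 0.384), and -0.1399 without siMatrin3 replicate 2. By limma 0 of 9 members passed, with 1, GSPT1, higher at an unadjusted p under 0.05, which 3.88% of all genes passed as higher and 14.0% as lower. After adjustment the test called 0.216% of all genes higher and 0.823% lower.

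RSEM's effective length, which averages isoform lengths within a gene with abundant isoforms counting more, was used to ask whether the mix of long and short isoforms moved. UPF1 was at 3376, 4866 and 4308 bases in siCTRL and 3734, 4120 and 3670 bases in siMatrin3. UPF2 was at 4310, 4430 and 5133 bases in siCTRL and 4700, 5145 and 5156 bases in siMatrin3. These were the members with the largest log2 changes in either direction, -0.11 for UPF1 and 0.12 for UPF2, and in both the groups overlapped. GSPT1 was the steadiest, at 2473, 2504 and 2504 bases in siCTRL and 2397, 2544 and 2380 bases in siMatrin3, a ratio of 1.07 between the highest and lowest library. UPF3A varied most, from 1277 to 1902 bases, a ratio of 1.49, with both extremes in siMatrin3.

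Groups overlapped in effective length for all 9 members. By limma on the log2 scale 0 of 9 passed, at adjusted p from 0.867 to 1.0 and with 0 at an unadjusted p under 0.05. Of 12244 genes whose effective length could vary, 0% were called, and 841 had an unadjusted p under 0.05. A gene-level mean over isoforms cannot show which exon or transcript was used.

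**Figure D4:**
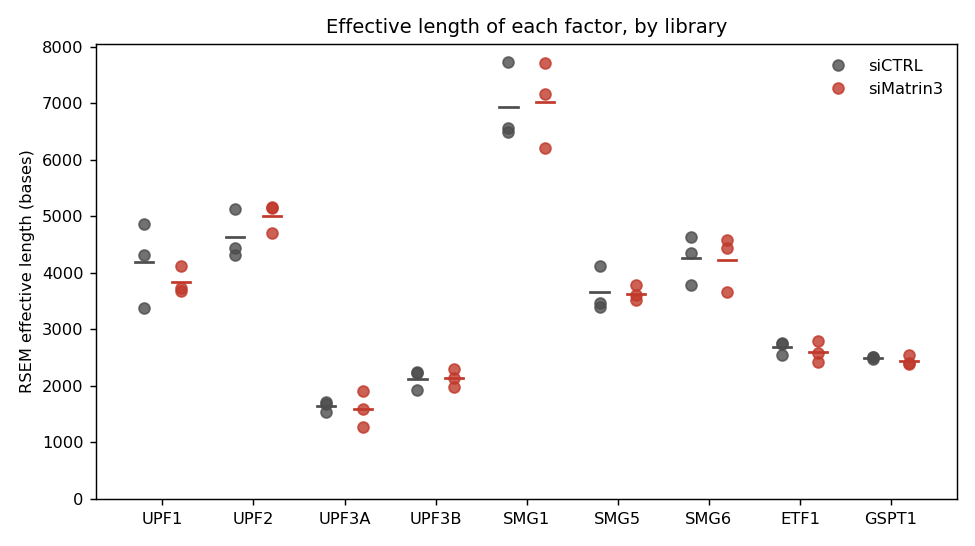
RSEM effective length in bases of each gene in every library (points), with the mean of each group (short line), on an axis that starts at 0. The groups overlap for all 9 genes, and UPF1 spreads from 3376 to 4866 bases within siCTRL.

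Annotation of the members was compared with that of 12177 coding genes tested. The authors' tables list transcript IDs, and their biotype was taken from GENCODE release 44. Transcripts of the NMD biotype were among those of 2 of the 9 members, SMG1 and ETF1, with 1 transcript each, against 45% of the coding genes. Of the listed transcripts, 3 of 5 for UPF3B and 16 of 17 for SMG1 matched that release, and those of the other members all matched. In the canonical transcripts, the 3′ UTR was 4991 bases in GSPT1 (percentile 91.8) and 4709 bases in SMG1 (percentile 90.6). Those of ETF1 (2210), UPF1 (1713), SMG6 (1649) and SMG5 (1363) were also over the median of 1344 bases, and UPF2 (1276), UPF3A (900) and UPF3B (856) were under it. The 2 longest 3′ UTRs belonged to a gene that rose and to one that did not pass. The members' own stop codons were TGA in 6, TAA in 2 (UPF1 and GSPT1) and TAG in 1 (ETF1), against 49.9%, 28.1% and 22.1% of the coding genes.

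Short sequences that earlier results of these data had linked to changes were searched in the 3′ UTRs, on the strand of the transcript. ATTACAA or TTACAAA, which overlap each other by 6 letters, occurred in 25.7% of 12136 3′ UTRs, and GAAGACT or AAGACTA, which overlap by 6 letters, in 18.4%. Among the members GSPT1 held TTACAAA 1 time and SMG6 held GAAGACT 1 time, and the other 7 held none of the 4. GSPT1 has the longest 3′ UTR of the members (4991 bases), and SMG6 did not pass (adjusted p = 0.248 by edgeR). Both sites are given with the match in capitals, 5′ to 3′ on the minus strand of hg38.
GSPT1 3′ UTR, chr16:11872703-11872732: gtgtgcacatgTTACAAAggcaactaccat
SMG6 3′ UTR, chr17:2059991-2060020: ctagagtctcaGAAGACTgggctctttgga
The choice of these letters used the same libraries, so the matches are a description.

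Ratios between partners were compared within libraries, where the scaling between libraries does not enter. GSPT1 to ETF1, the 2 subunits of the release complex, gave 0.848, 0.764 and 0.785 in siCTRL and 0.892, 0.808 and 0.880 in siMatrin3, on the TPM scale. The ratio was 0.799 ± 0.0438 and 0.860 ± 0.0454 (SD, n = 3 each), with overlapping groups and a difference of 0.11 on the log2 scale (exact two-sided permutation test, p = 0.2). UPF3A to UPF3B gave 1.55, 2.01 and 1.67 in siCTRL and 1.53, 1.57 and 1.38 in siMatrin3, a difference of -0.22 (exact permutation p = 0.2). SMG1 to UPF1 gave 1.22, 1.32 and 1.34 in siCTRL and 1.18, 1.12 and 1.25 in siMatrin3, a difference of -0.13 (exact permutation p = 0.2). UPF2 to UPF1 (-0.09) and SMG5 to SMG6 (0.14) each gave an exact permutation p of 0.7. With expected counts in place of TPM, GSPT1 to ETF1 gave 0.761, 0.751 and 0.719 in siCTRL and 0.765, 0.798 and 0.865 in siMatrin3, without overlap, a log2 difference of 0.1207 (exact permutation p = 0.1, before adjustment). On the TPM scale all 5 ratios overlapped between the groups, adjusted p was 0.333 or 0.7, and 3 against 3 libraries cannot give an exact p under 0.1.

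The rest of the pathway was described from 6 lists with 61 genes, of which 60 were tested. These lists too were chosen with earlier results of these data known. By edgeR 4 were higher, 0 were lower and 56 did not pass, against 5.68% and 5.18% of all genes. At an unadjusted p under 0.05 the counts were 11 higher and 1 lower, and 12.8% and 12.3% of all genes passed that limit. DESeq2 called 7 higher and 0 lower, with 7.32% and 5.45% of all genes called. The replicate block called 9 higher and 0 lower, with 8.39% and 7.37% of all genes called. Testing without a count filter gave 7 and 0 (3.22% and 2.55% of all genes), the effective length offset 0 and 0 (0.886% and 0.726%), and a threshold of 0.01 gave 1 and 0 (2.05% and 2.06%). With 1 library left out, the count of higher genes was 3 without siCTRL replicate 1, 4 without siCTRL replicate 2, 1 without siCTRL replicate 3 and 2 without any 1 of the siMatrin3 libraries, and 0 were lower, while 2.35% to 4.26% of all genes were called higher.

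Of 7 other NMD factors described here, 0 passed in either direction by edgeR (median log2 fold change 0.11). At an unadjusted p under 0.05, 2 were higher and 0 lower, beside 12.8% and 12.3% of all genes. DESeq2 and the replicate block, under which 7.32% and 8.39% of all genes were called higher, each called 2 higher and 0 lower, namely DHX34 and RUVBL2. DHX34, a helicase of the pathway, was at 62.4, 55.9 and 48.4 CPM in siCTRL and 67.9, 63.4 and 69.2 CPM in siMatrin3 (log2 fold change 0.27, adjusted p = 0.063, and 0.0389 with the replicate block). RUVBL2, an ATPase that assists assembly of SMG1 complexes, was at 134, 142 and 125 CPM in siCTRL and 157, 145 and 157 CPM in siMatrin3 (0.20, adjusted p = 0.0668, and 0.0464 with the block). Neither gene overlapped between groups, and 15.0% of all genes were higher without overlap. PNRC2, an adaptor to decapping, had a log2 fold change of 0.16 (adjusted p = 0.23) with overlapping groups.

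Of 14 termination and recycling genes 13 were tested, of which 1 rose and 0 fell (median 0.00, 12 not past the threshold). By the same test 5.68% of all genes rose and 5.18% fell. ABCE1, the ATPase that splits ribosomes after termination, was at 241, 235 and 225 CPM in siCTRL and 268, 279 and 267 CPM in siMatrin3. Its groups did not overlap, and the log2 fold change was 0.22 ± 0.05 (adjusted p = 0.0175 by edgeR). The adjusted p was 0.0851 when siCTRL replicate 3 was left out, 0.0564 when siMatrin3 replicate 2 was and 0.0509 when siMatrin3 replicate 3 was. JMJD4, which hydroxylates eRF1, had a log2 fold change of 0.29 (adjusted p = 0.24), and EIF3J, an initiation factor subunit with a part in recycling, had -0.13 (adjusted p = 0.297). Of the 4 mitochondrial release factors 0 passed in either direction, with a median of 0.06. At an unadjusted p under 0.05, 2 of the 4 were higher and 0 lower, beside 12.8% and 12.3% of all genes. MTRFR, which rescues stalled mitochondrial ribosomes, had 0.38 (adjusted p = 0.0588, and 0.0354 with the block, which called 8.39% of all genes higher). MRPL58 had 0.21 (adjusted p = 0.182) and MTRF1L had -0.18 (adjusted p = 0.432).

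Of 11 genes of the exon junction complex and its partners, which mark spliced mRNA for the pathway, 0 passed by edgeR or DESeq2. By edgeR 5.68% of all genes rose and 5.18% fell, and DESeq2 called 7.32% higher and 5.45% lower. At an unadjusted p under 0.05, 0 of the 11 were higher and 1 lower, beside 12.8% and 12.3% of all genes. The median of the list was -0.02. The member with an unadjusted p under 0.05 was PYM1, which takes the complex apart, at 11.4, 16.2 and 15.7 CPM in siCTRL and 9.88, 12.9 and 9.2 CPM in siMatrin3 (log2 fold change -0.47, adjusted p = 0.11). SAP18 (-0.15) and the core helicase EIF4A3 (0.12) each had an adjusted p of 0.228. Of 9 decapping and 5′ to 3′ decay genes 0 passed by edgeR, with a median of 0.06. At an unadjusted p under 0.05, 1 of the 9 was higher and 0 lower, beside the same 12.8% and 12.3% of all genes. DDX6, a helicase that activates decapping, had 0.14 (adjusted p = 0.104, 0.0361 with the block and 0.0447 by DESeq2). The block called 8.39% of all genes higher and DESeq2 7.32%. The decapping enzyme DCP2 (-0.12) and its cofactor DCP1A (-0.15) had adjusted p of 0.259 and 0.262 by edgeR.

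Of 16 transcripts known to be sensitive to NMD, 3 rose, 0 fell and 13 did not pass, with a median of 0.10. By the same test 5.68% of all genes rose and 5.18% fell. CARS1, a cysteine tRNA synthetase, was at 54.6, 51.4 and 47.7 CPM in siCTRL and 64.1, 67.7 and 67.5 CPM in siMatrin3 (log2 fold change 0.38 ± 0.07, adjusted p = 0.00595 by edgeR). ATF4, a stress transcription factor whose mRNA carries upstream reading frames, was at 219, 222 and 180.2 CPM in siCTRL and 259.7, 257 and 233 CPM in siMatrin3 (0.27 ± 0.08, adjusted p = 0.0383). RPL3, a ribosomal protein gene with an isoform that the pathway degrades, was at 917, 974 and 902 CPM in siCTRL and 1053, 1068 and 1024 CPM in siMatrin3 (0.17 ± 0.05, adjusted p = 0.0453). None of the 3 overlapped between groups, and 15.0% of all genes were higher without overlap. CARS1 passed in 15 of 16 alternatives, all but the effective length offset (adjusted p = 0.196). ATF4 passed in 10 and did not without siCTRL replicate 1 (adjusted p = 0.0565), siCTRL replicate 3 (0.153), siMatrin3 replicate 1 (0.127) or siMatrin3 replicate 2 (0.101). RPL3 passed in 7, and of the 6 libraries siCTRL replicate 2 was the one that could be left out without losing the call (adjusted p = 0.0866 to 0.163 without each of the others). At an unadjusted p under 0.05, 5 of the 16 were higher and 0 lower, beside 12.8% and 12.3% of all genes. The replicate block called 4 higher and 0 lower, where it called 8.39% and 7.37% of all genes. It added NAT9 (0.30, adjusted p = 0.0599 by edgeR without the block and 0.0393 with it), which did not overlap between groups. Of the splicing factor genes with a decay-sensitive isoform, SRSF3 had 0.12 without overlap (adjusted p = 0.136) and SRSF2 had 0.10 (0.275). The non-coding RNAs of the list, GAS5 (-0.05), SNHG1 (0.00), SNHG12 (0.11), SNHG15 (-0.03) and ZFAS1 (0.01), did not pass. Nor did the rest of the list, GADD45A (0.22), GADD45B (-0.14), ATF3 (0.02), DDIT3 (0.20) and TBL2 (0.09), all with overlapping groups. NAT9, SRSF2, SRSF3, the non-coding RNAs and the rest of the list were named after their values were seen. Gene counts cannot separate the decay-sensitive isoform of RPL3 or SRSF2 from the rest of the gene.

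**Figure D5:**
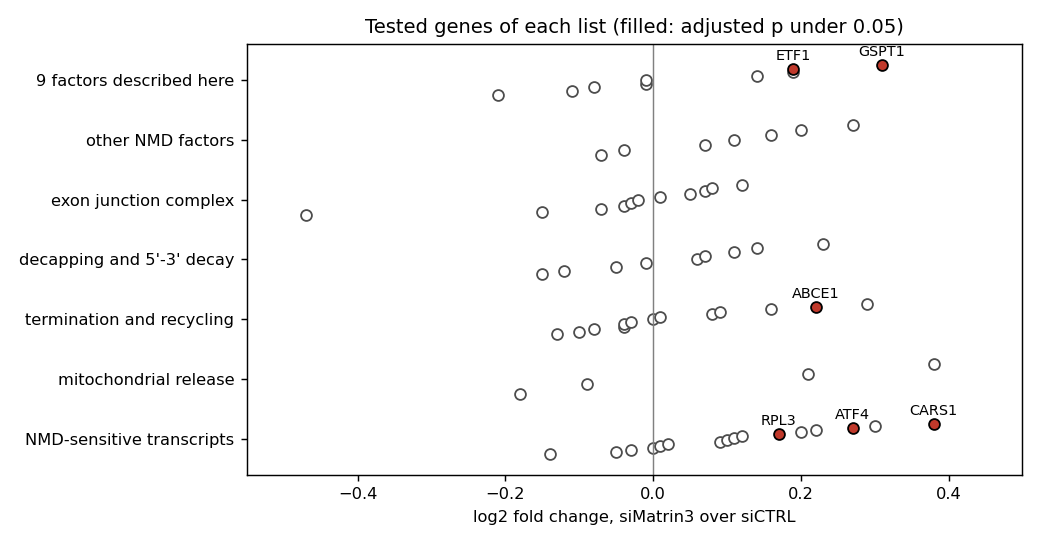
Log2 fold change, siMatrin3 over siCTRL, of each tested gene of the members and of the 6 pathway lists (points), filled and named where edgeR's adjusted p is under 0.05. The filled points, GSPT1, ETF1, ABCE1, CARS1, ATF4 and RPL3, lie to the right of 0, and there is none to the left.

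Profiles over the 6 libraries were compared for the 2 members that changed, using the root mean square distance between centred log2 CPM over the 11455 genes whose mean reached 5 CPM. Among the nearest to GSPT1 were GOPC (0.0233) and RAN (0.026). Nearest to ETF1 were P4HB (0.0198), MRPS27 (0.0207) and NIFK (0.0213). GSPT1 and ETF1 were 0.083 apart, which placed ETF1 at rank 529 among the neighbours of GSPT1 and GSPT1 at rank 1327 among those of ETF1.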

How the data were processed

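The members and the pathway lists were chosen with earlier results of these data known. Total RNA was measured in 6 libraries, 3 per group. The labels name a stranded mRNA kit, whereas the study's methods describe ribosomal RNA depletion with a directional kit and single-end reads. Per the labels, reads were processed with cutadapt, TopHat and RSEM on hg19, and neither the annotation release nor the strand setting of the counting is stated in these sources, so overlapping genes and near-identical copies are uncertain. The deposited expected counts are RSEM estimates per gene without normalization between libraries. The deposited TPM values were scaled by the authors' RSEM runs within each library, and the deposited effective lengths are in bases, an average over isoforms. The FPKM column was not used.

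Gene IDs were matched to GENCODE release 44 on hg38 (58472 of 58884, 99.3%), which gave positions. Counts were rounded, filtered by filterByExpr (minimum count 10, minimum total 15), scaled by TMM and tested with edgeR 4.0.16 in R 4.3.3 (quasi-likelihood, two-sided, threshold 0.05). SE is the fold change over the root of the F statistic. TPM (pseudocount 1) and log2 effective length (genes varying by over 0.1%) were tested with limma 3.58.1. Scripts were checked on simulated data. The biological coefficient of variation was 6.44%, and chi-square over its degrees of freedom was 2.62 to 4.37 for pairs within groups, so no libraries agreed within sampling noise. Deviations of libraries with the same replicate number correlated at 0.107, 0.104 and 0.157, each over the 0.1 set for pairing, so a replicate block was run beside the fit without it. The named genes were MATR3, the members, list genes past the threshold, the 3 of each list with the lowest p, near-identical copies, and 3 nearest profiles for each member that changed. Alternatives were other scalings and filters, a test without mitochondrial or small RNA genes, effective length as offset, DESeq2 1.42.0, leaving out each library, a threshold of 0.01, other pseudocounts and, added after the data were seen, copies summed into members. Genes withheld from this account were left out of the lists and their counts and are not reported here.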

Additional observations from a re-analysis of the deposited data

How the results depend on the processing

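The count of members higher was 2, and it was 0 with effective length as offset, 1 at an adjusted p of 0.01, and 1 to 2 when 1 library was left out. The count of members lower was 0 and became 1 with the replicate block, which changed no other call among the members. TPM and effective length gave 0 calls among the members under each alternative run. Over all genes, calls higher and lower were 814 and 743, against 127 and 104 with the offset, 294 and 295 at 0.01, 1203 and 1056 with the block, and from 350 and 357 (without siCTRL replicate 3) to 631 and 625 (without siMatrin3 replicate 2). The TPM test gave 31 and 118, against 19 and 25 with a mean TPM of at least 1, 0 and 1 with no filter, 28 and 46 with the block, and 0 and 2 without siMatrin3 replicate 2.

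Some values changed sign, none of them past a threshold, and the cause was not tested. Not all were near 0 in the main analysis, such as DCP1A (-0.1479) and SMG5 to SMG6 (0.1438). With expected counts in place of TPM, the log2 difference in UPF2 to UPF1 was 0.1355 and in SMG1 to UPF1 0.0015. The log2 fold change of UPF1 was 0.0063 without the filter and 0.0955 with the offset, that of SMG1 was 0.0102 without the filter and 0.0009 by DESeq2, and that of DCP1A was 0.0544 with the offset. With 1 library left out, the ratio of UPF2 to UPF1 differed by -0.1898 to 0.0364 and that of SMG5 to SMG6 by -0.0420 to 0.3254. The log2 fold change then ranged from -0.0201 to 0.0050 for UPF1 and from -0.0405 to 0.0510 for SMG1. That of TPM ranged from -0.1488 to 0.1190 for UPF1, -0.2973 to 0.0329 for UPF3A and -0.0570 to 0.1778 for UPF3B. That of effective length ranged from -0.2551 to 0.0086 for UPF1, -0.2065 to 0.0807 for UPF3A, -0.0607 to 0.0626 for UPF3B, -0.0501 to 0.1076 for SMG1, -0.0589 to 0.0824 for SMG5, -0.0946 to 0.0879 for SMG6 and -0.0996 to 0.0032 for ETF1. UPF3B and UPF3A had the fewest counts of the members, at 105 to 165 and 123.54 to 229.47 per library.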
